A study of Saccharomyces cerevisiae with 20 samples.

Results

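The genes described here are 10 genes of the phosphate starvation regulon of *Saccharomyces cerevisiae*, chosen by name from the 7126 genes counted in each library. They are the phosphate transporter genes *PHO84* (YML123C) and *PHO89* (YBR296C), the phosphatase genes *PHO5* (YBR093C) and *PHO8* (YDR481C), the regulators *PHO81* (YGR233C), *PHO4* (YFR034C) and *SPL2* (YHR136C), the polyphosphate synthesis genes *VTC3* (YPL019C) and *VTC4* (YJL012C), and *PHM6* (YDR281C), a gene of unknown function. Their levels were followed in polyadenylated RNA of the wild type (WT) and of 4 double mutants that are each labelled with a pair of deleted tRNA modification genes, *elp3 deg1*, *elp3 tcd1*, *urm1 deg1* and *urm1 tcd1*. All strains, WT included, are labelled *lys2* in the BY4741 background, and all were grown in minimal medium with Lys(0) and harvested at an OD600 of 1.0 after 10 cell divisions. Elp3 is the catalytic subunit of Elongator and Urm1 the sulfur carrier of tRNA thiolation, and both act on the wobble uridine of the tRNAs that read AAA, CAA and GAA codons. Deg1 is a pseudouridine synthase of the anticodon stem-loop, and Tcd1 makes the cyclic form of threonylcarbamoyladenosine next to the anticodon. The series compared here holds no single mutants, so the parts of the 2 deletions of a strain in any difference from WT cannot be told apart.

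In budding yeast, external phosphate is sensed through the cyclin-dependent kinase Pho85 with its cyclin Pho80. While phosphate is plentiful the kinase phosphorylates the transcription factor Pho4 and keeps it out of the nucleus. When phosphate falls, Pho81 inhibits the kinase, and Pho4 enters the nucleus and, with Pho2, activates genes for phosphate uptake, release from organic phosphates and storage. Phosphate was not varied in these cultures, so the values below are levels of the regulon in 1 medium.

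As a check of the labels, the counts of the 4 deleted genes were looked up first. *ELP3* had 425 to 500 counts in WT, 0 to 3 in *elp3 deg1* and 3 to 7 in the libraries labelled *elp3 tcd1*, replicates 1 to 3. *URM1* had 87 to 121 counts in WT and 0 or 1 in *urm1 deg1* and in replicates 1 to 3 of the label *urm1 tcd1*. *DEG1* had 226 to 273 counts in WT and 0 in each library of both *deg1* mutants. *TCD1* had 377 to 407 counts in WT, 0 to 2 in replicates 1 to 3 of the label *urm1 tcd1*, but 147 to 185 in replicates 1 to 3 of the label *elp3 tcd1*, which goes against that label. In replicate 4 the labels did not hold either, since the library labelled *elp3 tcd1* had 345 counts of *ELP3* and 0 of *URM1*, and the one labelled *urm1 tcd1* had 5 counts of *ELP3* and 174 of *URM1*. Both replicate 4 libraries were left out of the values that follow, so that WT, *elp3 deg1* and *urm1 deg1* have 4 libraries and the *tcd1* labels have 3. The labels number the replicates without saying whether they were separate cultures, so the p-values measure the spread between these libraries. The libraries used held 3273876 to 3926511 counts. At that depth 3 counts, the smallest number taken as different from none, are 0.764 to 0.916 CPM, a scale on which each count is divided by the total of its library. This floor covers counting error only. In replicates 1 to 3 of the label *urm1 tcd1* the genes of chromosome XI stood at a median of 1.00 to 1.02 above the WT mean on the log2 scale. Of the replicate 4 libraries left out, the one labelled *elp3 tcd1* had 1.00 there and the one labelled *urm1 tcd1* had 0.002. No gene of the list lies on that chromosome. The medians of the chromosomes that carry the list lay between -0.11 and 0.09 in every library used.

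The sequences before 4 of the genes are shown because these genes had the largest fold changes against WT. Those of *PHO89* and *SPL2* were falls. *PHO84* had a fall in *elp3 deg1* and rises under the *tcd1* labels. *PHM6* had higher values in each mutant, beside few counts in WT. Each is the 300 bases from 400 to 101 bases before the start codon, read 5′ to 3′ on the strand of the gene from the RefSeq copy of the R64 genome, at chrXIII:25901-26200 (*PHO84*), chrII:798623-798922 (*PHO89*), chrVIII:375201-375500 (*SPL2*) and chrIV:1022422-1022721 (*PHM6*), all on the minus strand. Capitals mark CACGTG, the core of the strong Pho4 site, and the weaker core CACGTT, which is written AACGTG where it lies on the other strand.
PHO84: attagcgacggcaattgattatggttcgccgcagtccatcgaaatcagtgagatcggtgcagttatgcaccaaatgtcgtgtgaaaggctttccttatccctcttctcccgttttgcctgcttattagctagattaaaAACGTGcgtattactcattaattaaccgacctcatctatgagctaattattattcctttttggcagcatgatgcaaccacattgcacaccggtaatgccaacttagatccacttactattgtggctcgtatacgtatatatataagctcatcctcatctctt
PHO89: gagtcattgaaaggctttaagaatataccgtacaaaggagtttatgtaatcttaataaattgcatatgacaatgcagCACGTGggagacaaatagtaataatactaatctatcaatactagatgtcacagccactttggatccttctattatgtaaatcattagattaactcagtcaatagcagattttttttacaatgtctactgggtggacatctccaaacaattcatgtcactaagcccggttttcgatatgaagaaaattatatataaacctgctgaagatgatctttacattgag
SPL2: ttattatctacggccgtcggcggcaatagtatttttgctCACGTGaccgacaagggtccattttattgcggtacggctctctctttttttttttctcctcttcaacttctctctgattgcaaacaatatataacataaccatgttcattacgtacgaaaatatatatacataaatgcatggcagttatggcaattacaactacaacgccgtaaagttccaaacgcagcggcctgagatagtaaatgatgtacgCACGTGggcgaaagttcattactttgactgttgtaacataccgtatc
PHM6: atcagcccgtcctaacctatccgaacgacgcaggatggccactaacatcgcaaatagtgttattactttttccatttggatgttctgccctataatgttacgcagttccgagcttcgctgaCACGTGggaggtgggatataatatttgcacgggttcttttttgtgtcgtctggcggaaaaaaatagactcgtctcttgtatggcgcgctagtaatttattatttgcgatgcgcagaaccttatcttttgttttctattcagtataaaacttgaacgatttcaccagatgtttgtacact
Both strands were searched in these windows only, so sites nearer to the start codon or further from it were not looked for. CACGTG was found 2 times in the window of *SPL2* and 1 time in those of *PHO89* and *PHM6*, and the window of *PHO84*, which overlaps the annotated open reading frame YML122C, held CACGTT 1 time. Over the 10 genes, 7 windows held CACGTG (*PHO89*, *PHO5*, *PHO81*, *SPL2*, *VTC3*, *VTC4* and *PHM6*) and 4 held CACGTT (*PHO84*, *PHO5*, *PHO8* and *VTC3*). The window of *PHO8* overlaps the gene *CWC21*, which lies 180 bases from *PHO8*. The CACGTT of *PHO8* lay 380 to 375 bases before the start codon. The window of *PHO4*, which overlaps YFR034W-A and YFR035C, held neither of these letter strings. Among 5993 windows of the same length before yeast coding sequences, 4.56% held CACGTG, 9.83% held CACGTT and 13.8% held at least 1 of them. A match is a description of the letters and not of binding.

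In WT the 10 genes spanned a wide range of levels. On a scale per length (CPM per kilobase, mean ± SD, n = 4), *PHO8* was highest at 327 ± 13.5, followed by *PHO4* at 111 ± 6.42, *VTC4* at 88.4 ± 2.30, *VTC3* at 86.2 ± 3.55 and *PHO84* at 67.2 ± 7.48. *SPL2* stood at 39.3 ± 2.12, *PHO5* at 35.5 ± 4.20, *PHO89* at 32.2 ± 1.57, *PHO81* at 20.6 ± 1.25 and *PHM6* at 2.93 ± 1.88. *VTC4* and *VTC3* did not differ beyond their spread in WT. In the library means of the *elp3 deg1* mutant *PHO84* was the lowest of the 10 genes at 1.69 CPM per kilobase, and in the libraries labelled *elp3 tcd1* it was the highest at 400.5.

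**Figure D1:**
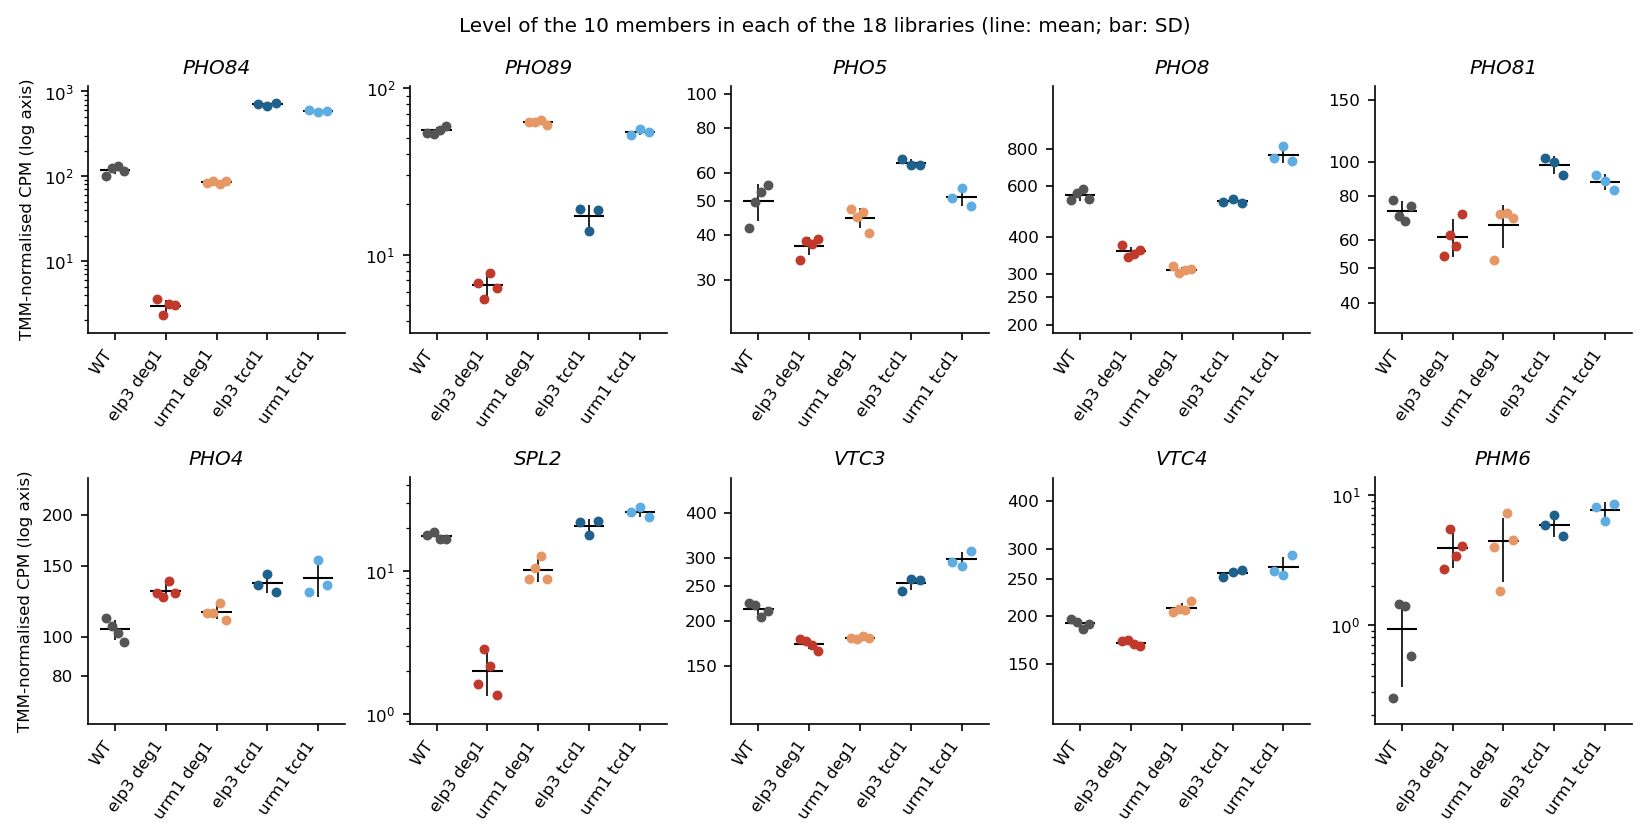
TMM-normalised CPM (log axis) of the 10 genes in the 18 libraries used, 1 point per library, with the group mean as a line and the SD as a bar. *PHO84* lies between 2.30 and 3.52 in *elp3 deg1* and between 580.0 and 725 in the libraries with a *tcd1* label, against 102 to 131 in WT.

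Each mutant was compared with WT by edgeR's quasi-likelihood test, and a gene was called higher or lower where its p, adjusted over the 5849 genes tested by the Benjamini-Hochberg method, did not exceed 0.01. The 4 comparisons share the WT libraries. In *elp3 deg1*, 8 of the 10 genes were called lower and 2 higher, while 66.5% of all genes tested were called (33.4% lower and 33.1% higher). In *urm1 deg1*, 4 were called lower and 1 higher, where 66.3% of all genes were called (33.1% lower and 33.2% higher). In the libraries labelled *elp3 tcd1*, 7 were called higher and 1 lower, where 64.4% of all genes were called (32.1% higher and 32.3% lower). In the libraries labelled *urm1 tcd1*, 8 were called higher and 0 lower, where 65.0% of all genes were called (32.8% higher and 32.2% lower). With so many genes called, a count of called members says little without its direction and size. The 10 genes had a median log2 fold change of -0.38 for *elp3 deg1*, -0.17 for *urm1 deg1*, 0.35 under the label *elp3 tcd1* and 0.46 under *urm1 tcd1*, beside medians of all genes tested of -0.0049, 0.01, 0.01 and -0.02. When libraries were scaled by their total counts in place of TMM factors, the median of all genes moved to -0.14, 0.09, 0.05 and -0.29 in the same order. That scaling gave 4 higher and 4 lower members in *urm1 deg1*, as upper quartile factors also did, and 5 higher and 1 lower under the label *urm1 tcd1*. Of all genes, it called 68.3% in *urm1 deg1* (68.1% with upper quartile factors) and 73.0% under *urm1 tcd1*. All 10 genes passed the filter on low counts, *PHM6* only through the mutants in which it was high, so that its calls against WT are no support for a rise. Without *PHM6*, 1 of 9 genes was called higher and 8 lower in *elp3 deg1*, with 0 higher and 4 lower in *urm1 deg1*, 6 and 1 under the label *elp3 tcd1* and 7 and 0 under *urm1 tcd1*, with medians of -0.43, -0.19, 0.35 and 0.46.

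The library ranges gave a view without a model. In *elp3 deg1* 7 members lay below every WT library and 2 above, where 32.6% and 34.1% of all genes tested did so and 66.8% did not overlap WT in either direction. In *urm1 deg1* 4 lay below and 3 above, against 30.9% and 35.5% of all genes and 66.5% in either direction. Under the label *elp3 tcd1* 1 lay below and 7 above, against 33.1% and 35.3% of all genes and 68.4% in either direction. Under *urm1 tcd1* 0 lay below and 8 above, against 35.6% and 34.5% of all genes and 70.1% in either direction. *PHM6* is 1 of the members above WT in each of the 4 mutants.

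**Figure D2:**
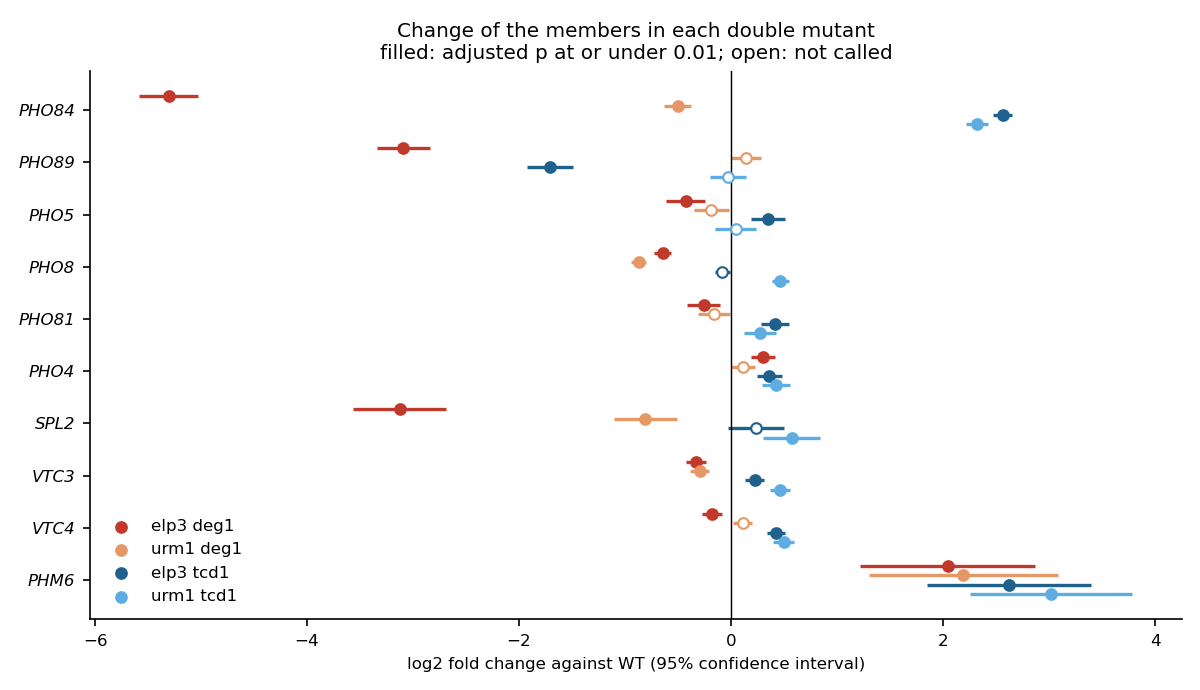
Log2 fold change against WT with its 95% confidence interval for the 10 genes in the 4 double mutants, filled where the adjusted p was at or under 0.01. *PHO84* runs from -5.30 in *elp3 deg1* to 2.56 under the label *elp3 tcd1*, and *PHM6* lies right of 0 in each mutant. The values of *PHM6* are no support for a rise, since it passed the filter only through the mutants.

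*PHO84* encodes the high-affinity phosphate transporter of the plasma membrane, a proton symporter that also signals phosphate. Its level in WT was 102, 127, 131 and 115 TMM-normalised CPM, and in *elp3 deg1* it was 3.52, 2.30, 3.10 and 3.00, from 8 to 13 counts a library. In *urm1 deg1* it was 82.6, 87.7, 81.6 and 88.4. The libraries labelled *elp3 tcd1* had 718, 676 and 725, and those labelled *urm1 tcd1* had 600, 580 and 590. The 5 groups did not overlap at any step of this order, from *elp3 deg1* at the bottom through *urm1 deg1*, WT and *urm1 tcd1* to *elp3 tcd1* at the top. The mean in WT was 39.8 times that in *elp3 deg1*, and the mean was 5.96 times that in WT under *elp3 tcd1* and 4.97 times under *urm1 tcd1*. Against WT, the log2 fold change was -5.30 ± 0.14 (SE, adjusted p = 1.06e-26) in *elp3 deg1*, the fourth lowest of all genes tested, and -0.50 ± 0.06 (adjusted p = 1.05e-09) in *urm1 deg1*. It was 2.56 ± 0.05 (adjusted p = 1.36e-48) under the label *elp3 tcd1* and 2.32 ± 0.05 (adjusted p = 1.02e-30) under *urm1 tcd1*. The counts of *PHO84* on chromosome XIII (24037 to 25800, minus strand) were read on sequence found once in the genome, since each of its 1715 words of 50 bases was unique. As the RNA is that of whole cultures, fewer cells with the transcript and less of it per cell cannot be told apart. The neighbours of *PHO84* had smaller changes. *TUB3*, which encodes an alpha tubulin, lies 353 bases away on the same strand. It had log2 fold changes of -0.08, -0.28, -0.70 and -0.56 in the same order of mutants. YML122C, with 3 to 24 counts, had -1.13, 0.18, 0.79 and -0.22. Its fall in *elp3 deg1*, on the side of *PHO84*, was called (adjusted p = 0.00762). Its value under the label *elp3 tcd1* lay on that side too, without a call (adjusted p = 0.0176). The remaining values of YML122C lay on the other side from *PHO84* and were not called.

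*PHO89* encodes the sodium-coupled high-affinity phosphate transporter, which works at alkaline pH. WT had 53.8, 53.2, 56.1 and 59.2 normalised CPM, *elp3 deg1* had 6.77, 5.45, 7.75 and 6.26, and *urm1 deg1* had 62.6, 62.7, 64.3 and 60.2. Under the label *elp3 tcd1* the level was 18.7, 13.9 and 18.5, and under *urm1 tcd1* it was 52.4, 56.7 and 54.2. Thus *PHO89* was low in both *elp3* mutants, whose libraries lay below all others, and the ranges of WT and *urm1 tcd1* overlapped. The log2 fold change was -3.09 ± 0.12 (adjusted p = 2.04e-21) in *elp3 deg1* and -1.71 ± 0.11 (adjusted p = 1.80e-21) under the label *elp3 tcd1*. In *urm1 deg1* it was 0.14 with an interval from -0.0020 to 0.28, and under *urm1 tcd1* it was -0.03 with an interval from -0.20 to 0.14. Neither was called, although scaling by total counts gave a call in *urm1 deg1* at 0.22 and under *urm1 tcd1* at -0.31, and upper quartile factors gave one in *urm1 deg1* at 0.20. *PHO84* and *PHO89* therefore parted under the label *elp3 tcd1*, with *PHO84* above and *PHO89* below every WT library.

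*SPL2* encodes a small inhibitor of low-affinity phosphate transport. Its level was 17.8, 18.8, 16.8 and 16.8 normalised CPM in WT, 1.62, 2.87, 2.17 and 1.36 in *elp3 deg1* (5 to 10 counts a library) and 8.77, 10.6, 12.7 and 8.84 in *urm1 deg1*. The libraries labelled *elp3 tcd1* had 21.9, 17.8 and 22.5, which overlapped WT, and those labelled *urm1 tcd1* had 25.9, 28.2 and 24.0, above the rest. The mean in WT was 8.75 times that in *elp3 deg1*. The log2 fold change was -3.13 ± 0.21 (adjusted p = 8.18e-15) in *elp3 deg1*, -0.81 ± 0.15 (adjusted p = 4.71e-06) in *urm1 deg1* and 0.57 ± 0.13 (adjusted p = 2.12e-04) under *urm1 tcd1*. Under *elp3 tcd1* it was 0.23, with an interval from -0.03 to 0.50, and was not called. The call under *urm1 tcd1* was lost with total count scaling (0.29, adjusted p = 0.0408). The next gene, *ARO9*, which encodes an aromatic aminotransferase and is read from the other strand with 608 bases between, had log2 fold changes of -3.95, -3.94, -0.81 and -1.70.

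Of the phosphatases, *PHO5* encodes the repressible acid phosphatase of the cell surface, the classical reporter of the pathway. It had 41.8, 49.5, 53.0 and 55.2 normalised CPM in WT, 34.1, 38.5, 37.8 and 39.0 in *elp3 deg1* and 65.7, 63.1 and 63.2 under the label *elp3 tcd1*. The other two mutants, with 40.6 to 47.3 in *urm1 deg1* and 48.4 to 54.2 under *urm1 tcd1*, overlapped WT. *PHO5* fell in *elp3 deg1* (log2 fold change -0.43 ± 0.09, adjusted p = 8.44e-05) and rose under the label *elp3 tcd1* (0.35 ± 0.08, adjusted p = 1.47e-04). It was not called under *urm1 tcd1* (0.04) or in *urm1 deg1* (-0.19), where leaving out WT replicate 1 gave a call (-0.26, adjusted p = 0.0058). *PHO5* is 86.5% identical in coding sequence to its neighbour *PHO3* and 83.6% to *PHO11*, and 87.7% of its words of 50 bases occur once in the genome, so reads from the remaining stretches could not be counted for it alone.

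*PHO8* encodes the vacuolar alkaline phosphatase. WT had 535, 567, 583 and 539 normalised CPM, *elp3 deg1* had 375, 342, 351 and 361, and *urm1 deg1* had 320, 302, 307 and 310. Under the label *elp3 tcd1* it had 528, 541 and 522, which overlapped WT, and under *urm1 tcd1* it had 744, 822 and 730. *PHO8* was thus lower in both *deg1* mutants and higher only under *urm1 tcd1* among these 4 comparisons. The log2 fold change was -0.65 ± 0.04 (adjusted p = 2.02e-16) in *elp3 deg1*, -0.87 ± 0.04 (adjusted p = 1.15e-25) in *urm1 deg1* and 0.47 ± 0.04 (adjusted p = 8.52e-13) under *urm1 tcd1*. In the libraries labelled *elp3 tcd1* it was -0.08, with an interval from -0.15 to -0.01, and was not called.

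*VTC3* and *VTC4* encode subunits of the vacuolar transporter chaperone complex, in which Vtc4 makes polyphosphate. *VTC3* had 205 to 225 normalised CPM in WT, 165 to 178 in *elp3 deg1*, 178 to 182 in *urm1 deg1*, 243 to 262 under the label *elp3 tcd1* and 285 to 314 under *urm1 tcd1*. Only the *deg1* mutants met in this order, in which both lay below WT and both *tcd1* labels above it. The log2 fold changes of *VTC3* were -0.33 ± 0.05, -0.30 ± 0.04, 0.22 ± 0.04 and 0.46 ± 0.05 in the same order, and all 4 were called, with the highest adjusted p at 1.26e-05. *VTC4* had 185 to 197 in WT, 167 to 173 in *elp3 deg1*, 205 to 219.7 in *urm1 deg1*, 253 to 264 under *elp3 tcd1* and 256 to 288 under *urm1 tcd1*. It fell in *elp3 deg1* (-0.18 ± 0.05, adjusted p = 7.28e-04) and rose under both *tcd1* labels (0.42 ± 0.04 and 0.50 ± 0.05). In *urm1 deg1* it was not called (0.11, adjusted p = 0.0225), though its libraries lay above those of WT, and it was called there with upper quartile factors (0.17), with total count scaling (0.19) and in one fit over the 18 libraries (0.14).

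*PHO81* encodes the inhibitor of the Pho80-Pho85 kinase and *PHO4* the transcription factor that this kinase controls. *PHO81* had 77.9, 70.3, 68.2 and 75.2 normalised CPM in WT, 54.1, 62.3, 57.7 and 71.4 in *elp3 deg1* and 52.6, 71.2, 71.6 and 69.6 in *urm1 deg1*. It had 103, 100.2 and 92.0 under the label *elp3 tcd1* and 92.0, 88.4 and 83.3 under *urm1 tcd1*. The ranges of both *deg1* mutants overlapped WT and those of both *tcd1* labels lay above it. *PHO81* rose under *elp3 tcd1* (0.42 ± 0.07, adjusted p = 1.92e-07) and under *urm1 tcd1* (0.28 ± 0.07, adjusted p = 0.00114), where the second value turned to -0.01 with total count scaling and was no longer called with upper quartile factors (0.21, adjusted p = 0.0103) or without *urm1 tcd1* replicate 1 (0.24, adjusted p = 0.0136). In *elp3 deg1* it was called lower (-0.26 ± 0.08, adjusted p = 0.00344). That call was lost with DESeq2 (adjusted p = 0.0119) and without WT replicate 1 (0.0187), WT replicate 4 (0.0115), *elp3 deg1* replicate 1 (0.0277) or *elp3 deg1* replicate 3 (0.0121). *PHO4* had 97.1 to 111 normalised CPM in WT, 125 to 137 in *elp3 deg1*, 110.0 to 121 in *urm1 deg1*, 129 to 143 under *elp3 tcd1* and 129 to 155 under *urm1 tcd1*. It rose in *elp3 deg1* (0.30 ± 0.06, adjusted p = 1.26e-05), under *elp3 tcd1* (0.36 ± 0.06, adjusted p = 1.87e-07) and under *urm1 tcd1* (0.42 ± 0.07, adjusted p = 4.91e-07), the last not called with total count scaling (0.14). In *urm1 deg1* neither *PHO81* (-0.16, and -0.07 without *urm1 deg1* replicate 1) nor *PHO4* (0.11) was called, and *PHO4* passed there with upper quartile factors (0.18) and total count scaling (0.20). The *PHO4* transcript was above WT in *elp3 deg1*, the mutant in which *PHO84*, *PHO89* and *SPL2* were lowest.

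*PHM6* had 1, 5, 5 and 2 counts in the WT libraries (0.273 to 1.45 normalised CPM), 10 to 19 in *elp3 deg1*, 7 to 27 in *urm1 deg1*, 19 to 25 under the label *elp3 tcd1* and 18 to 25 under *urm1 tcd1*. Each mutant library lay above each WT library, and mutants that were neighbours in the order of their means overlapped. Summed over libraries there were 13 counts in WT against 55, 67, 68 and 67. The ratio of these sums per normalised library size was 4.27 in *elp3 deg1*, 4.78 in *urm1 deg1*, 6.42 under *elp3 tcd1* and 8.37 under *urm1 tcd1*. These ratios are a description and leave out the spread between libraries. All 4 ratios rest on the same 13 WT counts. The calls of *PHM6* against WT are part of the counts of called genes and of the plot of fold changes against WT. They are no support for a rise, since *PHM6* passed the filter on low counts only through the mutants.

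The *elp3* and *urm1* mutants were also compared directly within each second deletion. Between *elp3 deg1* and *urm1 deg1*, 5 of the 10 genes were called lower in *elp3 deg1* and 1 higher, where 61.3% of all genes were called (31.0% lower and 30.3% higher). The log2 fold change was -4.84 ± 0.13 for *PHO84*, -3.27 ± 0.11 for *PHO89*, -2.36 ± 0.25 for *SPL2*, -0.32 ± 0.05 for *VTC4* and -0.28 ± 0.08 for *PHO5*, and 0.19 ± 0.04 for *PHO8*. *PHO84* was the fourth lowest of the genes tested in this comparison (adjusted p = 7.16e-24). The call of *PHO5* (adjusted p = 0.00447) was lost with DESeq2 and without *elp3 deg1* replicate 1 or *urm1 deg1* replicate 1, 2 or 3 (adjusted p from 0.0108 to 0.0246), and that of *PHO8* with total count scaling (0.01). *PHO4* was not called (0.15, adjusted p = 0.0110) but passed without *elp3 deg1* replicate 2 (0.17) or *urm1 deg1* replicate 3 (0.18), with RLE factors and with no filter (0.16 in each). Total count scaling also called *PHO81* (-0.32) and *VTC3* (-0.26) lower here. For *elp3 tcd1* against *urm1 tcd1*, replicates 1 to 3 of each label, 2 genes were called higher in *elp3 tcd1* and 3 lower, where 60.3% of all genes were called (30.8% higher and 29.5% lower). *PHO84* was higher by 0.26 ± 0.04 and *PHO5* by 0.32 ± 0.09 on the log2 scale, while *PHO89* had -1.67 ± 0.12, *PHO8* -0.53 ± 0.04 and *VTC3* -0.22 ± 0.05. The call of *PHO5* here was lost with DESeq2 (adjusted p = 0.0249) and without *urm1 tcd1* replicate 3 (0.0141), and that of *VTC3* with upper quartile factors (-0.10) and with total count scaling, where its sign turned (0.09). *PHO81* was called higher with both of these scalings (0.28 and 0.47), and total count scaling turned *PHO4* and *VTC4* to called rises (0.26 and 0.25). The other two negative values, for *PHO89* and *PHO8*, kept their sign and call under each scaling tried.

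**Figure D3:**
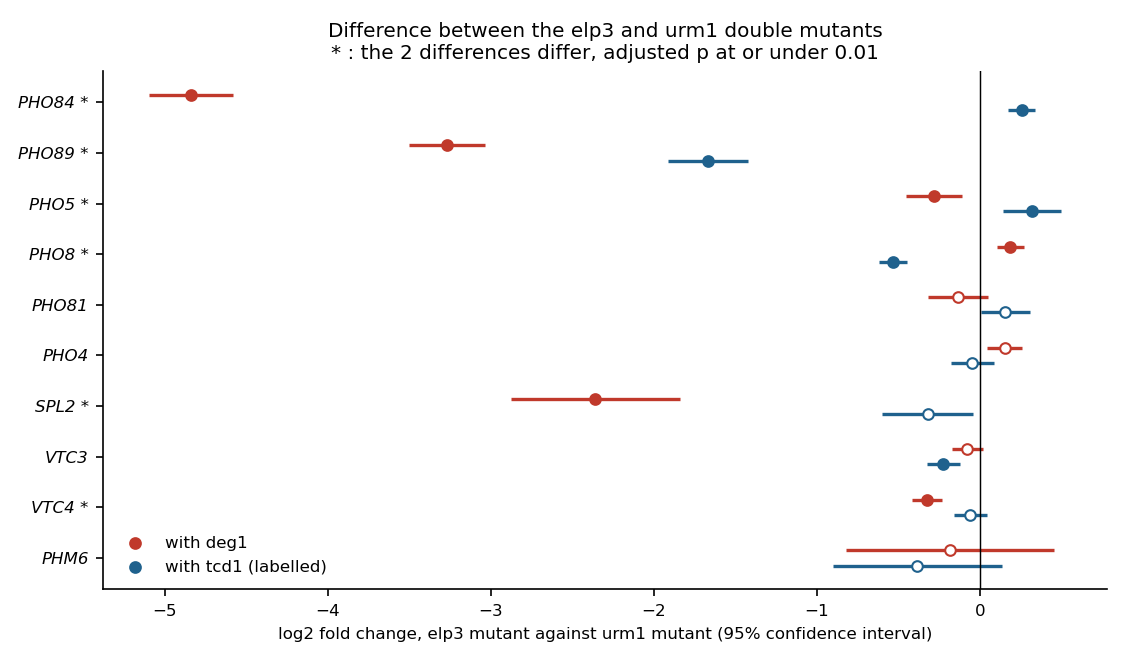
Log2 fold change of the *elp3* mutant against the *urm1* mutant, with its 95% confidence interval, with *deg1* and with the *tcd1* label, filled where the adjusted p was at or under 0.01. A star marks the 6 genes for which the 2 differences differed, among them *PHO84* with -4.84 beside 0.26.

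Whether the *elp3* and *urm1* mutants differed alike with *deg1* and with the *tcd1* label was tested in 1 fit over the 18 libraries. It is named the test of the second deletion below. *TCD1* counts remained under the label *elp3 tcd1* and chromosome XI stood higher under *urm1 tcd1*. The part of the second deletion itself therefore cannot be told apart. The 2 differences differed for 6 of the 10 genes, near the share of all genes called, 67.6% (33.6% below 0 and 33.9% above). The difference with *deg1* less that with the *tcd1* label was -5.09 ± 0.15 for *PHO84* (adjusted p = 2.88e-32), -2.03 ± 0.29 for *SPL2* (adjusted p = 2.63e-08), -1.59 ± 0.18 for *PHO89* (adjusted p = 1.01e-10), -0.59 ± 0.12 for *PHO5*, -0.26 ± 0.07 for *VTC4* and 0.73 ± 0.06 for *PHO8*. For *PHO81*, *PHO4*, *VTC3* and *PHM6* it was not called, with intervals from -0.52 to -0.04, 0.04 to 0.38, 0.02 to 0.29 and -0.63 to 1.05. With total count scaling *PHO4* and *VTC3* were called on the other side of 0, at -0.29 and -0.34, and *PHO81* was called at -0.78. *PHO81* was also called with upper quartile factors (-0.43), without *elp3 deg1* replicate 4 (-0.36) and without *urm1 deg1* replicate 1 (-0.37), and *PHO4* without *urm1 tcd1* replicate 1 (0.26).

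Within the *elp3* mutants and within the *urm1* mutants, the second deletions, as labelled, were compared in the same way. Between *elp3 deg1* and the libraries labelled *elp3 tcd1*, 8 of the 10 genes were called lower in *elp3 deg1* and 0 higher, where 59.1% of all genes were called (29.2% lower and 29.9% higher). *PHO84* had a log2 fold change of -7.87 ± 0.09 (adjusted p = 6.25e-37), the second lowest of all genes tested, and *SPL2* had -3.37 ± 0.22 (adjusted p = 3.91e-15), the ninth lowest. *PHO89* had -1.38 ± 0.18, and *PHO5*, *PHO8*, *PHO81*, *VTC3* and *VTC4* lay between -0.78 and -0.56. *PHO4* (-0.06) and *PHM6* (-0.59, adjusted p = 0.0466) were not called, and *PHO4* was called with total count scaling (-0.24). Between *urm1 deg1* and the libraries labelled *urm1 tcd1*, 7 genes were called lower in *urm1 deg1* and 0 higher, where 67.7% of all genes were called (33.3% lower and 34.3% higher). *PHO84* had -2.79 ± 0.05 (adjusted p = 9.70e-32), *SPL2* -1.34 ± 0.15 and *PHO8* -1.30 ± 0.04, followed by *VTC3* at -0.72, *PHO81* at -0.40, *VTC4* at -0.35 and *PHO4* at -0.27. *PHO89* (0.20), *PHO5* (-0.19) and *PHM6* (-0.80, adjusted p = 0.0163) were not called, and *PHM6* was called at -1.14 without *urm1 deg1* replicate 3. *PHO89* was called with upper quartile factors (0.29) and total count scaling (0.53). Total count scaling ended the calls of *PHO81* (-0.07) and *VTC4* (-0.02), and turned that of *PHO4* to 0.05 without a call. The call of *PHO4* was also lost without *urm1 tcd1* replicate 2 (adjusted p = 0.0108). The median of the 10 genes was -0.64 in the *elp3* pair and -0.56 in the *urm1* pair, beside -0.02 and 0.03 for all genes tested.

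The 5 genes whose pattern over the 18 libraries was most like that of *PHO84* were found by the root mean square difference in log2 level relative to the WT mean. *SPL2* was nearest at 1.62, followed by *FUR4*, the uracil permease gene, at 1.81, YNL194C at 1.90, *JLP1*, which encodes a sulfonate dioxygenase, at 1.95 and *HMX1*, the heme oxygenase gene, at 1.95. *PHO84* itself lay at 2.80 from a flat line at the WT mean. Their mean log2 levels relative to WT in *elp3 deg1* were -2.88 for *SPL2*, -2.47 for *FUR4*, -1.25 for YNL194C, -1.52 for *JLP1* and -1.55 for *HMX1*. Under the label *elp3 tcd1* they were 0.23, 0.35, 2.70, 0.30 and 0.68, so that only YNL194C among the 5 had a mean near that of *PHO84*.

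A list of 35 other genes, most of them of phosphate handling, was read in the same fits, and all 35 passed the filter. It includes *CTF19*, a kinetochore gene, and *GTR1*, a gene near *PHO84*, and both enter its counts and medians. In *elp3 deg1* 12 were called higher and 10 lower, in *urm1 deg1* 14 and 9, under the label *elp3 tcd1* 15 and 12, and under *urm1 tcd1* 10 and 12. These are 62.9%, 65.7%, 77.1% and 62.9% of the 35 genes, beside 66.5%, 66.3%, 64.4% and 65.0% of all genes tested. Their median log2 fold changes were 0.02, 0.07, 0.16 and -0.11. The 3 largest called rises in *elp3 deg1* were *PHM8*, a nucleotide and lysophosphatidic acid phosphatase gene, at 2.05 ± 0.05, *HOR2*, a glycerol phosphatase gene, at 1.51 ± 0.04 and *PHO85*, the kinase of the pathway, at 0.90 ± 0.05. The 3 largest called falls there were *CTF19*, a kinetochore gene divergent from *VTC3*, at -1.26 ± 0.13, *PHO90*, a low-affinity phosphate transporter gene, at -1.01 ± 0.05 and *PLC1*, the phospholipase C gene, at -0.61 ± 0.05.

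In *urm1 deg1* the largest rises were *PHM8* at 1.07 ± 0.05, *DIA3*, which resembles acid phosphatases, at 0.67 ± 0.12 and *PPN1*, an endopolyphosphatase gene, at 0.61 ± 0.04. The largest falls were *PHO90* at -1.17 ± 0.05, *PHO3*, the constitutive acid phosphatase gene, at -0.88 ± 0.13 and *PHO91*, the vacuolar phosphate transporter gene, at -0.64 ± 0.04. Under the label *elp3 tcd1*, *PHM7*, of unknown function, had 2.04 ± 0.09, *PHM8* had 2.03 ± 0.05 and *DIA3* had 1.99 ± 0.11, and the falls were *PHO90* at -1.20 ± 0.05, *PHO11* at -0.78 ± 0.28 and *VTC5*, a further subunit of the polyphosphate complex, at -0.57 ± 0.08. *PHO11* is 99.7% identical to *PHO12* and only 11.7% of its words of 50 bases occur once in the genome, so its value is uncertain. Under *urm1 tcd1* the rises were *PHM7* at 1.74 ± 0.09, *PHM8* at 1.08 ± 0.06 and *PHO88*, which encodes a protein of the endoplasmic reticulum, at 0.96 ± 0.05, and the falls were *VTC5* at -1.26 ± 0.10, *PHO3* at -1.09 ± 0.15 and *PHO90* at -0.74 ± 0.05. *PHM8* is thus among the named rises and *PHO90* among the named falls of each comparison, all of which use the same WT libraries.

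**Figure D4:**
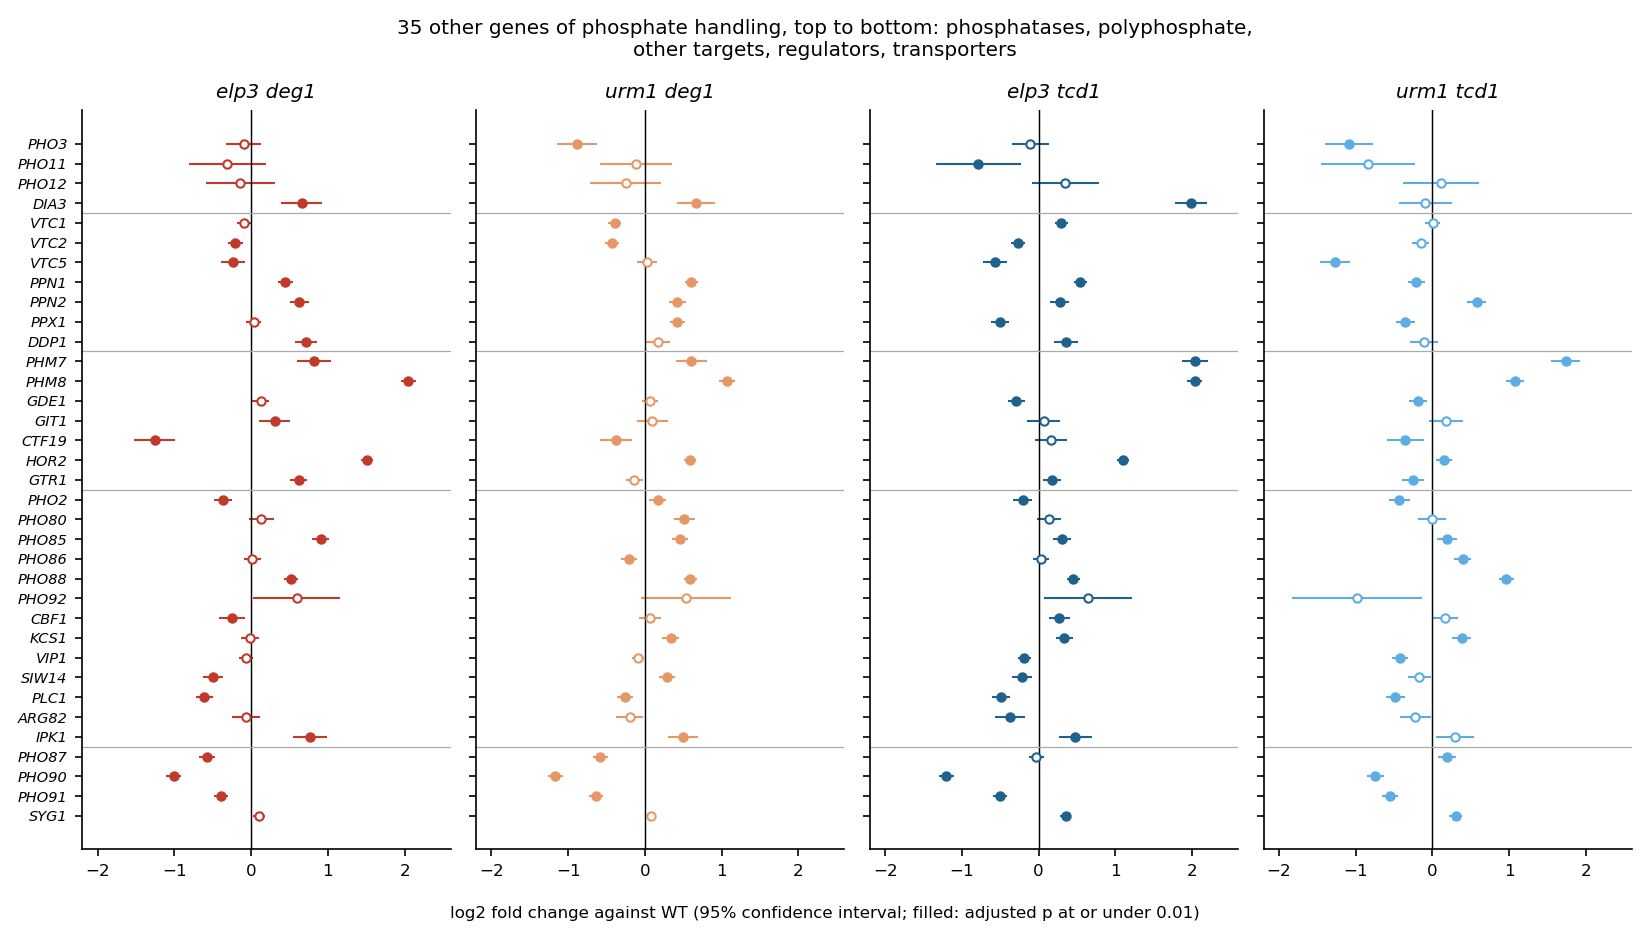
Log2 fold change against WT, with its 95% confidence interval, of the list of 35 other genes, most of phosphate handling, in the 4 double mutants. Genes are grouped by role and filled where the adjusted p was at or under 0.01. *PHO90* lies between -1.20 and -0.74 and *PHM8* between 1.07 and 2.05 in the 4 mutants.

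The coding sequences of the 10 genes were compared for AAA and CAA, codons read by tRNAs that Elp3 and Urm1 modify. GAA codons were not counted. AAA made up 1.53% of the codons of *PHO84* and 1.50% of those of *PHO5*, above 7.21% and 6.92% of 5994 yeast coding sequences. It made up 5.99% of *VTC3*, and 7 of the 10 genes lay below the median of all coding sequences, 4.11%. CAA made up 4.73% of *SPL2*, above 93.7% of coding sequences, and 3.41% of *PHO84*, beside a median of 2.53%. For CAA, 4 of the 10 genes lay below that median. These shares are given as a description of the genes.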

How the data were processed

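The deposited values are whole read counts per gene that the authors made from stranded, polyadenylated RNA libraries, without normalization. Reads were aligned with STAR 2.5.1b. The submitters' processing notes name HTSeq 1.4.6-p2 as the counter, whereas the headers of the count files name featureCounts 1.4.6-p2, run on annotation release 84 of R64-1-1 with reverse strandedness. With that program's default settings, reads that map to several places or overlap several genes are left out.

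Tests were run in R 4.3.3 with edgeR 4.0.16 (limma 3.58.1 loaded with it) using TMM factors, the filterByExpr filter at its minimum of 10 counts, applied to the 18 libraries used (5849 of 6845 genes with a count passed), and the quasi-likelihood test on the groups of each comparison. p-values were adjusted by Benjamini-Hochberg over all genes tested and called at or under 0.01. The fold change and its F statistic gave the standard error, and levels are CPM over TMM-normalised library sizes. DESeq2 1.42.0 was the alternative test. The fits were also run on simulated counts in which few genes changed, in balanced directions and with a common spread. Far more genes were called in the real data, so that run is no check of the scaling. Python 3.11.15 with numpy 2.4.6, pandas 2.3.3, Biopython 1.88 and matplotlib 3.10.9 was used for the other steps. The pattern search added 0.5 CPM before taking logs.

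The 10 genes, the 35 other genes and the tests were chosen with earlier results of these data known. Named in the text are all 10 genes in each comparison, the 3 largest called rises and falls of the 35 genes against WT, the deleted genes, the 5 genes nearest to *PHO84* and genes next to a member. Other alternatives were RLE and upper quartile factors, total count scaling (chosen after seeing the data), no filter, one fit, a replicate block, other thresholds, the 2 libraries left out, and leaving out each replicate. Replicate pairs differed by more than sampling noise (chi-square per degree of freedom 1.14 to 2.51 among the libraries used).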

Additional observations from a re-analysis of the deposited data

Results flagged for a closer look

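Listed here are the differences between the *elp3* and *urm1* mutants that changed between *deg1* and the *tcd1* label. They come from the test of that change in the fit over 18 libraries. The change (the difference with *deg1* less that with the *tcd1* label, log2) was -5.09 for *PHO84*, -1.59 for *PHO89*, -0.59 for *PHO5*, 0.73 for *PHO8*, -2.03 for *SPL2* and -0.26 for *VTC4*. With both replicate 4 libraries put back under their labels, the calls of *PHO5* (adjusted p = 0.0305) and *PHO8* (adjusted p = 0.0194) were lost. Those libraries had counts of the deleted genes like those of the other *tcd1* label. Putting them back therefore mixes the groups, and calls lost in this way are no check of the results.

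One library stood apart from its group. *PHO81* had 52.6 normalised CPM in *urm1 deg1* replicate 1, the lowest of that group, where the other 3 libraries had 69.6 to 71.6. It was the 1 library found among 30 groups of 4 libraries searched, and about 1 in 20 such groups is found by chance.

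The libraries that carry replicate 4 of the *tcd1* labels entered none of the comparisons above except where they are said to be put back. In normalised CPM, the one labelled *elp3 tcd1* lay above every WT library for *PHO84* (594), *PHO8* (729), *PHO81* (94.7), *PHO4* (130.2), *SPL2* (25.5), *VTC3* (308), *VTC4* (269.9) and *PHM6* (6.92). The one labelled *urm1 tcd1* did so for *PHO84* (739.7), *PHO5* (62.8), *PHO81* (91.8), *PHO4* (153), *SPL2* (20.1), *VTC3* (260.5), *VTC4* (262) and *PHM6* (3.07). For *PHO89*, the first had 53.8 and the second 16.2, where replicates 1 to 3 had 13.9 to 18.7 under *elp3 tcd1* and 52.4 to 56.7 under *urm1 tcd1*. In each of the 2 libraries, 8 of the 10 genes were nearer to the mean of replicates 1 to 3 of the other *tcd1* label than to that of their own. *PHO81* and *PHO4* were nearer to their own. Neither was called between the *tcd1* labels in replicates 1 to 3, nor were *SPL2*, *VTC4* and *PHM6* among the 8. The counts of the deleted genes in both libraries were like those of the other label.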

How the results depend on the processing

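Over the 90 values of the 10 genes in 9 comparisons, 1462 of 1580 recomputed values kept their direction and side of the threshold, 73 lost the call, 38 gained one and 7 reversed. All 7 reversals came with total count scaling, an alternative chosen after seeing the data. They were *PHO81* in *urm1 tcd1* against WT (-0.00608), *PHO4* (0.26), *VTC3* (0.0853) and *VTC4* (0.25) in *elp3 tcd1* against *urm1 tcd1*, *PHO4* in *urm1 deg1* against *urm1 tcd1* (0.0539), and *PHO4* (-0.29) and *VTC3* (-0.34) in the test of the second deletion. With a minimum absolute log2 fold change of 1 the members called numbered 4, 1, 3 and 2 against WT (in place of 10, 5, 8 and 8, both *deg1* mutants first, *elp3* before *urm1*), 3 and 1 between the *elp3* and *urm1* mutants (6 and 5), 3 and 3 between the second deletions (8 and 7) and 3 in the test of the second deletion (6). At that threshold 12.8%, 12.7%, 10.6%, 13.3%, 7.80%, 12.1%, 7.57%, 16.6% and 23.1% of all genes were called, in the same order. Each count of members against WT in this section includes *PHM6*, whose calls are no support for a rise. The 1 member called at that threshold in *urm1 deg1* was *PHM6*. In *urm1 deg1* against WT, 8 were called with upper quartile factors, with total count scaling and at an adjusted p of 0.05 (68.1%, 68.3% and 73.8% of all genes). With replicate 4 of both *tcd1* labels put back, 5 were called in *elp3 tcd1* against WT (29.4% of all genes, beside 64.4% without them). Between *elp3 tcd1* and *urm1 tcd1* 0 were called, and edgeR and DESeq2 each called 0 of all genes. With both tools 0 members had an unadjusted p under 0.05 there (174 and 187 of all genes). This setting mixes libraries whose deleted genes had the counts of different labels, so calls lost in it are no check of the results. Leaving out 1 replicate at a time gave 9 to 10, 5 to 6, 8 to 8 and 7 to 8 members called against WT, 5 to 7 and 4 to 5 between *elp3* and *urm1* mutants, 8 to 8 and 6 to 8 between the second deletions and 6 to 7 in the test of the second deletion. Of all 5849 genes it called 3709 to 3841, 3704 to 3779, 3491 to 3679 and 3491 to 3702 against WT. In the same order, the other comparisons had 3394 to 3487, 3213 to 3364, 3140 to 3431, 3699 to 3868 and 3769 to 3908. Libraries with the same replicate number did not deviate together (mean correlation 0.0013 over 33 pairs, against -0.0004 over 96 other pairs), and the replicate block left the counts at 10, 5, 8, 8, 6, 5, 8, 7 and 6 and changed no call. With the block 66.3%, 66.1%, 60.3%, 63.5%, 61.0%, 61.8%, 57.1%, 64.6% and 67.3% of all genes were called, in the same order. Levels of *PHM6* in WT and of *PHO84* and *SPL2* in *elp3 deg1* rest on 13 counts or fewer a library.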
